A study of Mus musculus with 15 samples.

Results

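The genes described here are 9 genes best known from the sebaceous gland of the skin, read in RNA from whole blood. They are Scd1, Scd3, Elovl3, Acsbg1, Far2, Dgat2, Soat1, Mc5r and Krt79. They were taken by symbol out of 55416 gene identifiers, and they had been selected on their measured levels in these same libraries, so that their levels are given as a description and without a p-value. Blood came from 15 wild-type C57BL/6 mice, with 1 library per mouse, and the protocol given for every sample includes 4MOSC1 cells, a mouse oral squamous cell carcinoma line, placed in the tongue. The study's methods give female mice of 4 to 6 weeks of age for such transplants. In the untreated group, 5 mice had neither antibody nor surgery. A further 5 mice had 2 doses of αCTLA-4, an antibody that blocks an inhibitory receptor of T cells, with an early neck dissection (ND), the removal of the lymph nodes that drain the tongue. The last 5 mice had the same antibody with a late ND. The study's text and its figure legend differ on whether the blood of the late ND mice was drawn before or after their surgery, so "late" is used here as the name of a group. Blood was drawn by puncture of the cheek.

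A sebaceous gland fills its cells with lipid and then sheds them whole, and the released mixture of wax esters, triglycerides and cholesteryl esters coats hair and skin. The pathway starts with the synthesis of fatty acids, which are then elongated, desaturated, activated to acyl-CoA, reduced to fatty alcohols and esterified. Scd1 and Scd3 make monounsaturated fatty acids, Elovl3 elongates fatty acids, Acsbg1 activates long-chain fatty acids and Far2 reduces acyl-CoA to the fatty alcohols of wax esters. Dgat2 carries out the last step of triglyceride synthesis, and Soat1 esterifies cholesterol. Mc5r is a melanocortin receptor required for normal sebum secretion, and Krt79 is a keratin of the duct that leads from the gland to the hair canal. Scd1, Dgat2 and Soat1 are also used in many other tissues.

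Promoter sequence is shown for the 5 genes that RefSeq's table of mouse promoters on GRCm38.p6 held, since 4 of them were high in the same blood libraries and the fifth, Soat1, was not. Each window runs from 250 bases before the start site to 50 after it, on the gene's own strand. The windows are chr19:44203038-44203337 (plus strand) for Scd3, chr9:54661836-54662135 (minus strand) for Acsbg1, chr6:148047166-148047465 (plus strand) for Far2, chr15:101940275-101940574 (minus strand) for Krt79 and chr1:156474279-156474578 (minus strand) for Soat1. Capitals mark every match, on either strand, to 5 short motifs.
Scd3: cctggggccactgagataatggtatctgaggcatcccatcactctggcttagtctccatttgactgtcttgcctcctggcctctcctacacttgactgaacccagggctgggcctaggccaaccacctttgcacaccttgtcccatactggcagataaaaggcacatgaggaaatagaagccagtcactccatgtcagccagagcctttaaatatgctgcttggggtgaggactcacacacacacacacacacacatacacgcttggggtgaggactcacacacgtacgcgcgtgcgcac
Acsbg1: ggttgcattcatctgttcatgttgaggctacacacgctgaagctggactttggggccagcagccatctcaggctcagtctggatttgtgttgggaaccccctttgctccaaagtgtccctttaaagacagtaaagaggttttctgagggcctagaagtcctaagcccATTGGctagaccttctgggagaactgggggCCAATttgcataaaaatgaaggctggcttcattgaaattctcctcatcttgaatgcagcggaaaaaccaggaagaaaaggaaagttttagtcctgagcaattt
Far2: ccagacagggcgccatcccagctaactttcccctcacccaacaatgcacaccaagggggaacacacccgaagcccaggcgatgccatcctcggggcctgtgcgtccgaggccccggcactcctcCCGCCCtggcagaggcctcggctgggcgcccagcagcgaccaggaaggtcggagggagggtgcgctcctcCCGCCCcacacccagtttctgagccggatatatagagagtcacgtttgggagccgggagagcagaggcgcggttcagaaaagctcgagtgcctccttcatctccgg
Krt79: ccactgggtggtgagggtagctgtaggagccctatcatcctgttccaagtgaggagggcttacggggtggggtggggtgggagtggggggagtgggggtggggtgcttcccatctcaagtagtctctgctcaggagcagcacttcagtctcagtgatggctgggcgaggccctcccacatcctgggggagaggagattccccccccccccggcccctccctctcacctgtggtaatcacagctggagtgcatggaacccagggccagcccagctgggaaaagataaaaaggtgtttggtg
Soat1: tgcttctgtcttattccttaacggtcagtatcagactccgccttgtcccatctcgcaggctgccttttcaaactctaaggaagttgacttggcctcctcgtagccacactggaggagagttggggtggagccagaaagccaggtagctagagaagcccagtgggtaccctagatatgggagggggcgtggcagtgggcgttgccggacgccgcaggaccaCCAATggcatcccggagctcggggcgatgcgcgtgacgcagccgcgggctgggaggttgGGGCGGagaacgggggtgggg

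The motifs searched were the sterol regulatory element TCACNCCAC, the E-box CACGTG, the GC box GGGCGG, the CCAAT box CCAAT and the TATA box TATAAA. Acsbg1 held 2 CCAAT boxes, at -83 on the reverse strand and -53 on the forward strand, counted from the start site. Far2 held 2 GC boxes, both on the reverse strand, at -126 and -56. Soat1 held a CCAAT box at -30 and a GC box at 30 bases into the transcript. Neither the Scd3 nor the Krt79 window held any of the 5 motifs. Among 32544 promoter windows of the same length, 37.4% held a CCAAT box, 35.9% a GC box, 13.6% the TATA box, 7.17% the E-box and 1.24% the sterol regulatory element. No motif was found in more than 2 of the 5 windows, and the genes that were high together had none of the 5 motifs in common. The annotation used for positions below, unlike these windows, is on GRCm39.

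Levels are given as TMM CPM, the counts scaled to a common library size with TMM factors, that is, as shares of the read pairs assigned to genes, adjusted for the makeup of each library. Between 5527108 and 13924361 read pairs fell on genes per library. All 9 genes passed the filter on low counts over the 15 libraries. Scd1 had 674 to 22331 read pairs per library, while Mc5r had 0 to 155 and Krt79 1 to 222. Mc5r rested on 3 read pairs or fewer in 4 libraries and Krt79 in 3 libraries, and both had 10 or more in 9 and 10 libraries, respectively. Per kilobase of exon, the mean levels over the 15 libraries were 88 CPM for Scd1, 41.0 for Scd3, 27.9 for Elovl3, 6.49 for Soat1, 2.77 for Far2, 2.75 for Dgat2, 2.02 for Acsbg1, 0.971 for Krt79 and 0.947 for Mc5r. Scd1 lay above Scd3 in 15 of 15 libraries, Scd3 above Elovl3 in 13, Elovl3 above Soat1 in 14, Soat1 above Far2 in 14 and Acsbg1 above Krt79 in 15. Far2 and Dgat2 could not be ordered, as Far2 was the higher in 6 of 15 libraries, and neither could Krt79 and Mc5r, with Krt79 the higher in 7 of 15. Dgat2 lay above Acsbg1 in 10 of 15.

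Of the 9 genes, 7 had their 3 highest levels in the same 3 libraries, untreated 5, early 3 and late 5, which are 1 mouse of each group. These 7 were Scd1, Scd3, Elovl3, Acsbg1, Far2, Mc5r and Krt79. The same 7 genes had the same top 3 libraries when DESeq2 size factors or library totals replaced TMM. Dgat2 and Soat1 did not share this order. Together the 9 genes took 0.425% of gene counts in untreated 5 (95% Wilson interval 0.42 to 0.43), 0.233% in early 3 (0.229 to 0.236) and 0.384% in late 5 (0.38 to 0.388), against 0.0178% to 0.101% in the other 12 libraries. These intervals cover counting error only.

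**Figure D1:**
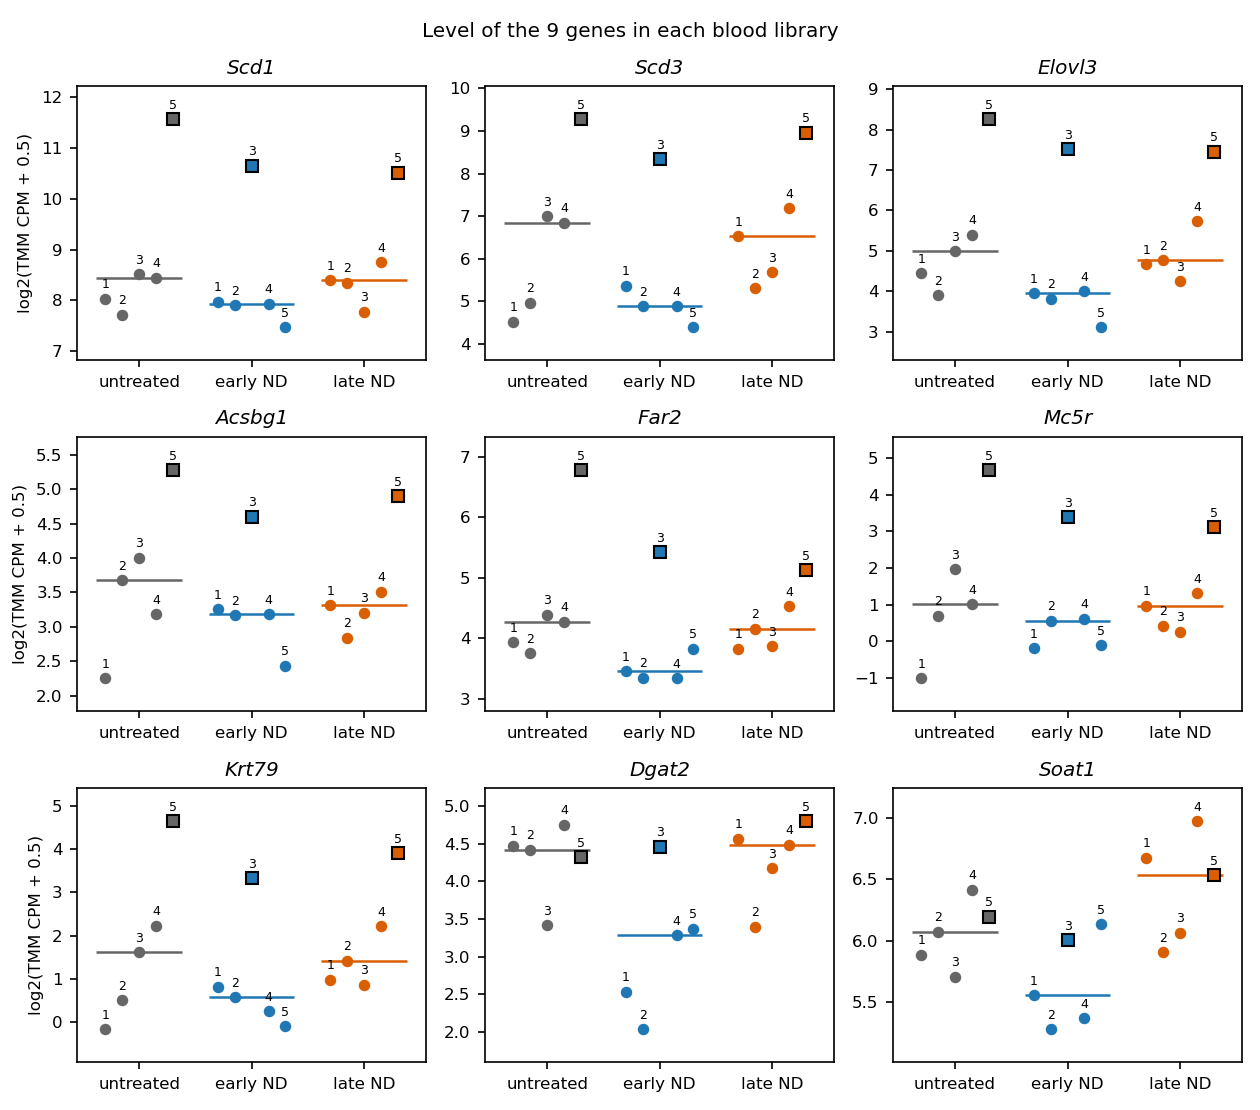
Level of each of the 9 genes in the 15 blood libraries, as log2(TMM CPM + 0.5), with 1 point per mouse numbered by replicate, a horizontal line at each group's median and black-edged squares for untreated 5, early 3 and late 5. The squares are the 3 highest points in 7 of 9 panels, but not in those of Dgat2 and Soat1.

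Scd1 (ENSMUSG00000037071, chromosome 19, 44382894 to 44399154, minus strand, GRCm39), the main stearoyl-CoA desaturase, had the highest level of the 9 genes per kilobase. Its level in untreated replicates 1 to 5 was 261.8, 210, 365.2, 348 and 3033 CPM. In early ND replicates 1 to 5 it was 251.2, 238.6, 1609, 244.1 and 177.4 CPM. In late ND replicates 1 to 5 it was 337.1, 325.5, 218.6, 431.3 and 1460 CPM. Each group thus held 4 libraries between 177.4 and 431.3 CPM and 1 library at least 3.38 times above the highest of these 12. Within their own groups, untreated 5 lay 9.95 times, early 3 6.67 times and late 5 4.41 times above the median of the other 4 mice. The ranges of the 3 groups overlapped.

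Scd3 (ENSMUSG00000025202, chromosome 19, 44191708 to 44232455, plus strand), a second desaturase of the same gene cluster, followed Scd1 with a wider range. The untreated replicates had 22.53, 30.73, 128, 114.8 and 619.5 CPM. The early ND replicates had 40.85, 29.09, 322.5, 29.19 and 20.52 CPM. The late ND replicates had 92.22, 39.21, 50.8, 145.6 and 497.8 CPM. The highest library was 30.2 times the lowest, and among the 12 lower libraries the 4 highest were untreated 3, untreated 4, late 1 and late 4. Scd3 stood at 20.4% of the Scd1 level in untreated 5, 20% in early 3 and 34.1% in late 5, and between 8.61% and 35.0% in the other 12 libraries. Of the stretches of 75 bases in Scd1 transcripts 2.04% also occur in its relatives, and of those in Scd3 3.2%, so only a small part of the reads of either gene could belong to the other.

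Elovl3 (ENSMUSG00000038754, chromosome 19, 46119917 to 46124133, plus strand), the fatty acid elongase, moved almost in step with Scd1. Untreated mice had 21.36, 14.42, 31.42, 41.67 and 305.6 CPM. Mice with early ND had 14.88, 13.56, 182.6, 15.45 and 8.121 CPM. Mice with late ND had 25, 26.68, 18.47, 52.91 and 175 CPM. The third highest library was 3.31 times the fourth, late 4, and no library lay between 52.91 and 175 CPM. Elovl3 came to 10.1%, 11.3% and 12% of the Scd1 level in untreated 5, early 3 and late 5, which is the narrowest ratio to Scd1 among the 9 genes in these libraries. On the opposite strand, 18.3% of its exon bases overlap Pitx3, and the strand setting of the counting is not given in the sources used here.

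Acsbg1 (ENSMUSG00000032281, chromosome 9, 54510840 to 54569197, minus strand), the acyl-CoA synthetase, showed the same 3 libraries at smaller ratios. Its levels were 4.273, 12.32, 15.57, 8.569 and 38.26 CPM in untreated mice. After early ND they were 9.079, 8.498, 23.77, 8.584 and 4.915 CPM, and in the late ND group 9.433, 6.669, 8.73, 10.88 and 29.35 CPM. The lowest of the 3, early 3, was 1.53 times untreated 3, the fourth library. Exons of Idh3a on the opposite strand cover 28.6% of its exon bases, so its reads could not be fully told from those of Idh3a.

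Far2 (ENSMUSG00000030303, chromosome 6, 147948548 to 148085069, plus strand), the fatty acyl-CoA reductase, was highest in untreated 5 by a wide margin. The untreated mice had 14.76, 12.95, 20.38, 18.82 and 108.9 CPM. Those with early ND had 10.47, 9.642, 42.2, 9.614 and 13.68 CPM, and those with late ND 13.65, 17.29, 14.04, 22.5 and 34.26 CPM. Untreated 5 lay 6.48 times above the median of the other untreated mice, early 3 4.2 times and late 5 2.19 times above those of their own groups. Of its exon bases, 22.6% overlap Far2os2 or Ergic2 on the opposite strand.

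Mc5r (ENSMUSG00000007480), the melanocortin receptor, and Krt79 (ENSMUSG00000061397, chromosome 15, 101837767 to 101848759, minus strand), the duct keratin, had the fewest read pairs of the 9 genes. Mc5r was listed at 0 in untreated 1, where 3 read pairs would be worth 1.17 CPM, and at 1.12, 3.397, 1.512 and 24.81 CPM in untreated 2 to 5. It stood at 0.3783, 0.9805, 9.971, 1.03 and 0.4274 CPM after early ND and at 1.465, 0.8496, 0.7019, 1.998 and 8.107 CPM in the late ND group. The 3 high libraries held 155, 73 and 124 Mc5r read pairs, and no other library held more than 27. Krt79 had 0.3884, 0.9101, 2.548, 4.2 and 24.65 CPM in untreated mice. The early ND mice had 1.261, 0.9805, 9.561, 0.6867 and 0.4274 CPM and the late ND mice 1.465, 2.167, 1.316, 4.144 and 14.51 CPM. Its read pairs numbered 154, 70 and 222 in untreated 5, early 3 and late 5 and at most 56 elsewhere.

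Dgat2 (ENSMUSG00000030747, chromosome 7, 98802491 to 98831991, minus strand), of triglyceride synthesis, did not follow the other genes in the untreated mice. It measured 21.75, 20.93, 10.19, 26.55 and 19.53 CPM there, so that untreated 5 was the fourth of 5. The early ND mice had 5.296, 3.595, 21.58, 9.271 and 9.83 CPM and the late ND mice 23.26, 10.03, 17.59, 21.98 and 27.39 CPM. In the early ND group, early 3 was 2.96 times the median of the other 4, and these 4 were the lowest libraries of the 15. Soat1 (ENSMUSG00000026600, chromosome 1, 156252095 to 156303864, minus strand), which esterifies cholesterol, had the narrowest range, 3.26-fold from lowest to highest. It measured 58.65, 66.86, 51.81, 84.85 and 72.84 CPM in untreated mice, 46.65, 38.4, 63.65, 40.86 and 69.67 CPM after early ND and 101.7, 59.6, 66.46, 125 and 92.18 CPM in the late ND group. Its highest library was late 4, and none of untreated 5, early 3 and late 5 was the highest of its group.

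Since 3 libraries stood apart, correlations between the genes were taken over the other 12, on log2(TMM CPM + 0.5), as a description without a p-value. The 12 points share 3 treatment groups and differ in depth. Among the 21 pairs of the 7 genes Pearson's r ran from 0.204 to 0.943 with a median of 0.715, and Spearman's rho from 0.126 to 0.923 with a median of 0.685. The closest pairs were Scd1 with Elovl3 (r = 0.943, rho = 0.923) and Scd3 with Krt79 (r = 0.899, rho = 0.909). Acsbg1 was close to Mc5r (r = 0.842, rho = 0.685) but not to Far2 (r = 0.204, rho = 0.126). Dgat2 and Soat1 were correlated with each other (r = 0.786, rho = 0.804) and less with the 7, with r between 0.016 and 0.674 over 14 pairs. Of the 7 genes, Scd1, Scd3, Elovl3 and Far2 had late 4 next below untreated 5, early 3 and late 5.

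**Figure D2:**
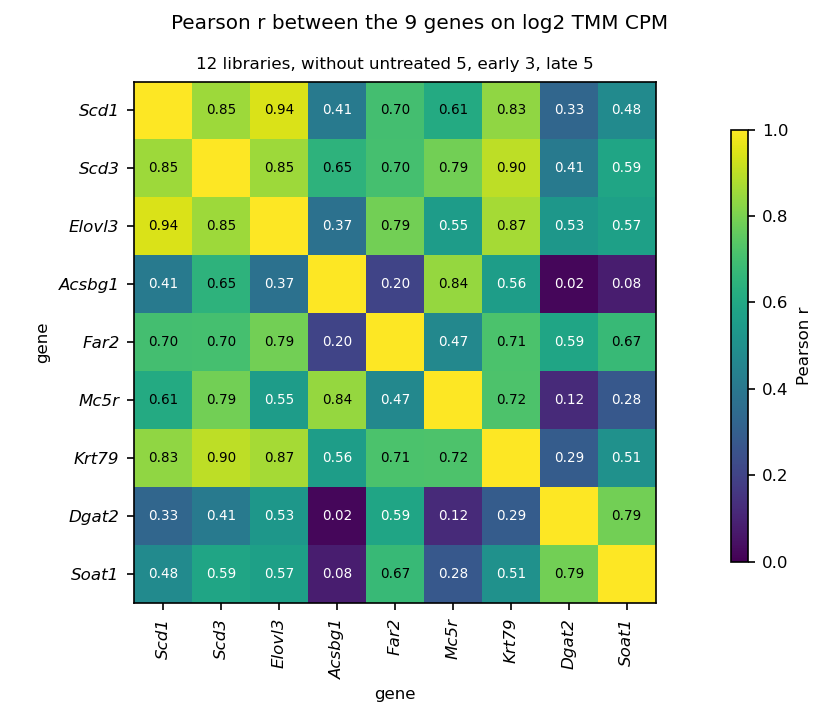
Pearson's r between each pair of the 9 genes on log2(TMM CPM + 0.5) over the 12 libraries without untreated 5, early 3 and late 5, with genes on both axes and colour giving r. Scd1, Scd3, Elovl3 and Krt79 form a block of pairs between 0.833 and 0.943, while Dgat2 and Soat1 pair with each other at 0.786.

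Outside the 9 genes, the 10 genes most like their mean standardized log2 level over all 15 libraries were Aacs, Fabp5, Cdcp1, Hsd17b11, Plin2, Lrp2, Gpt, Irx1, Agps and Sptlc3, with r from 0.973 to 0.983. Over the 12 libraries without untreated 5, early 3 and late 5, r for these 10 was 0.893 to 0.936. The 10 were picked for their r over all 15 libraries, which include these 12, so this range is a description only. Aacs makes acetoacetyl-CoA for lipid synthesis, Fabp5 binds fatty acids, Plin2 coats lipid droplets, Agps makes ether lipids and Sptlc3 is a subunit of serine palmitoyltransferase. Plin2, for example, was at 504, 292 and 237 CPM in untreated 5, early 3 and late 5 and at 26.8 to 98.3 CPM elsewhere. Irx1, a homeobox transcription factor, was at 77.6, 21.6 and 35.6 CPM in these 3, and its lowest library, untreated 1, was at 0.777 CPM. Of 13221 other genes compared, 405 (3.06%) had r over 0.8 with the mean of the 9 genes over the 15 libraries.

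A list of 45 other genes covered sebaceous glands and lipid synthesis in general. Of these 45, 34 had 10 or more read pairs in at least 1 library. For 20 of these 34, each of untreated 5, early 3 and late 5 lay above all 12 other libraries. The same held for 558 of 13294 genes past the count filter (4.2%). That filter differs from the 10 read pairs used for the list, and 31 of the 45 genes passed it. A gene may reach 10 read pairs only in libraries where it is high. Counts of genes with this order, here and for the marker lists below, are therefore a description only. Fasn, the fatty acid synthase, was at 740.4, 442.4 and 619.7 CPM in untreated 5, early 3 and late 5 and at 56.42 to 155.6 CPM in the other 12, and Acly, Acaca and Me1, which supply it with acetyl-CoA, malonyl-CoA and NADPH, had the same order. Elovl5, an elongase, reached 1938, 1006 and 1028 CPM against 83.77 to 319.6 CPM. Dgat2l6 (122.3, 63.65 and 68.84 against 4.661 to 16.99 CPM) and Mogat1 (159.6, 98.61 and 87.02 against 4.274 to 29.73 CPM) are acyltransferases, and Cidea and Plin2 belong to the lipid droplet. Srebf1 and Pparg, transcription factors of lipid synthesis, were also among the 20. Of the relatives of Scd1, Scd2 had the same order (265.6, 122.7 and 176.3 against 28 to 58.02 CPM), whereas Scd4 stayed at or below 0.817 CPM in every library. The 14 that did not have this order include Fads1, Fads2 and Elovl1.

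Part of the known sebaceous marker set was not detected. Awat1, a wax synthase of sebaceous glands, and Hsd3b6 had no read pair in any library, and Awat2, a relative of Awat1, had at most 4. Fa2h was at 0 in 11 and Elovl4 in 13 of the 15 libraries. The sebaceous markers detected thus included Mc5r and Krt79 but not Awat1 or Hsd3b6. Blood genes, such as Hbb-bs of red cells and Ptprc of white cells, were counted in every library, as the label of the tissue has it.

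Markers of other tissues moved with the 3 libraries to different degrees. Of 33 genes of epidermis and hair follicle, 14 had 10 or more read pairs in a library and 3 had all of untreated 5, early 3 and late 5 above the other 12, namely Epcam, Cdh1 and Perp. Epcam, an epithelial adhesion protein, was at 28.98, 19.26 and 19.55 CPM against 1.03 to 5.402 CPM. Among the keratins, Krt5 was at 1.44, 0.41 and 0.262 CPM in untreated 5, early 3 and late 5 and highest in early 2 at 3.6 CPM, Krt15 was also highest in early 2 at 5.39 CPM, and Krt14 was at most 0.8 CPM in any library. The summed level of the list, led by Sfn, Epcam and Cdh1, was 82.77, 56.95 and 59.69 CPM in the 3 libraries and 23.01 to 48.7 CPM in the others. Over the groups it ran from 26.81 to 82.77 CPM in untreated mice, 23.01 to 56.95 CPM after early ND and 26.65 to 59.69 CPM in the late ND group, and 9 of the 33 genes were at 0 in every library. Of 14 adipocyte genes, with 12 at 10 read pairs or more, 3 had this order, Lpl, Pck1 and Dio2, and Pnpla2, Lpl and Lipe were the most abundant. The adipocyte sum ran from 92.13 to 355.6 CPM in untreated mice, 84.33 to 279.7 CPM after early ND and 104.5 to 258.3 CPM in late ND mice. Lpl alone was at 236.3, 126.2 and 131.3 CPM in untreated 5, early 3 and late 5, against 12.74 to 48.92 CPM in the other 12. Pnpla2 was at 62.11, 73.34 and 57.07 CPM in these 3 (39.35 to 83.92 CPM over all 15). Lipe was at 22.25, 26.36 and 26.67 CPM (13.87 to 33.6 CPM over all 15), so neither stood apart. Adipoq, Plin1, Lep and Car3 did not pass the count filter in any pair of groups, and Ucp1 was at 0 in all 15 libraries.

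Of 26 genes of cholesterol synthesis 7 had the same order, among them Sqle and Lss of the sterol branch, while Srebf2, the most abundant of the list, did not. The summed level of this list was 794.4, 486.2 and 565.4 CPM in the 3 libraries and 291.3 to 366.3 CPM in the others. None of 15 muscle and connective tissue genes, led by Dcn, Atp2a1 and Mylpf, and none of 11 blood genes had it. The muscle and connective tissue sum was nevertheless highest in early 3, at 88.64 CPM. It was 37.62 CPM in untreated 5, 36.61 CPM in late 5 and 12.58 to 67.59 CPM in the other 12. Dcn (26.22 CPM), Acta1, Ckm and Mb were at their highest in early 3. Atp2a1 (10.24 CPM there, at most 14.17 CPM) and Mylpf (7.102 CPM there, at most 8.827 CPM) were not. Of 13 genes of salivary and lacrimal glands only 3 reached 10 read pairs in a library. Bpifa2 had this order, at 1.761, 1.912 and 0.523 CPM against at most 0.263 CPM. A single read pair was worth 0.16, 0.137 and 0.0654 CPM in untreated 5, early 3 and late 5. Bpifa2 reached 10 read pairs only in libraries where it was high, so its order is a description only. The sum of the 13 genes was 4.643, 2.868 and 2.942 CPM in the 3 libraries and 0.283 to 1.93 CPM in the others. The sum of the 11 blood genes, nearly all hemoglobin, was 432800, 405700 and 98730 CPM in untreated 5, early 3 and late 5 and 105900 to 1407000 CPM elsewhere. Hemoglobin took 41.9%, 39.7% and 14.9% of gene counts in these 3 and 17.5% to 64.1% in the others. The libraries poor in 18S ribosomal RNA, untreated 2, late 2 and late 3, were not among the 3. The part of other tissues in the result was not tested, and in blood of this kind more cells of a type and more RNA per cell cannot be told apart.

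**Figure D3:**
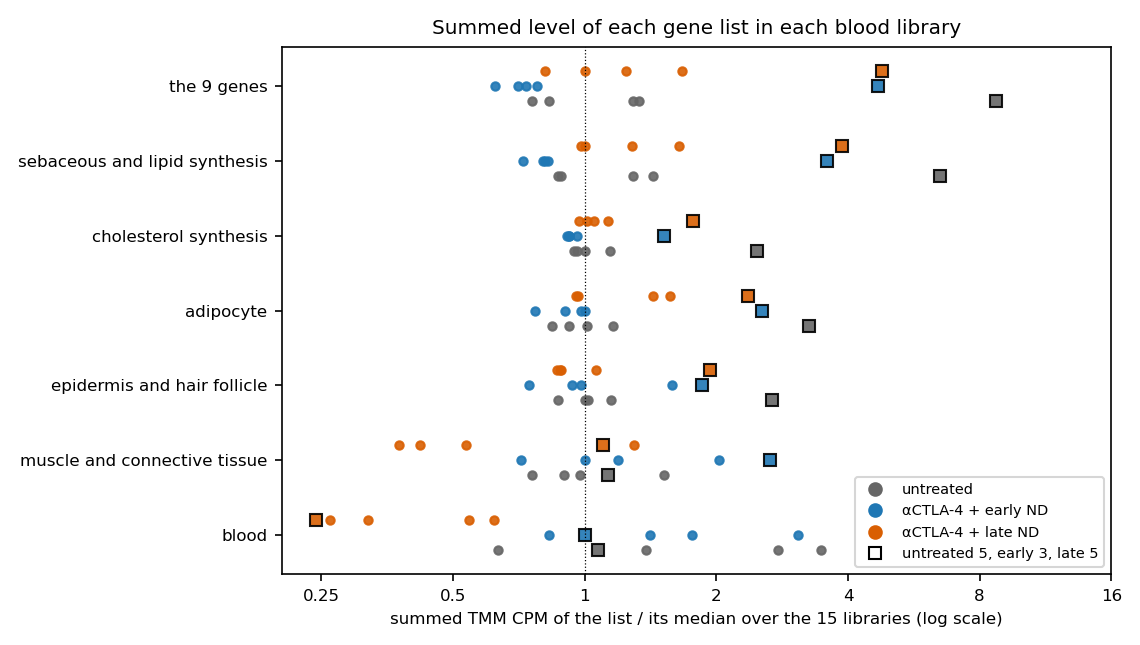
Summed TMM CPM of each gene list in each of the 15 libraries, divided by the list's median over the 15 libraries, on a log axis, with 1 point per mouse coloured by group and black-edged squares for untreated 5, early 3 and late 5. The squares lie at 4.68 to 8.7 for the 9 genes and at 3.59 to 6.5 for the 45 other sebaceous and lipid-synthesis genes. For the blood genes they lie at 0.243 to 1.07.

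The groups were then compared for each gene with edgeR's quasi-likelihood test, fitted over all genes of each pair of groups, to see how the 9 genes stood between untreated mice, early ND and late ND. None of the 9 genes was called in late against early ND at an adjusted p under 0.05, where 2.5% of 13315 genes were called higher and 2.48% lower. None of the 9 was called in late ND against untreated mice, where 0.989% of 13547 genes were higher and 2.01% lower. Of the 7 tested in early ND against untreated mice, which left out Mc5r and Krt79 for low counts, none was called, and 0% of 12151 genes were called higher and 0% lower. At an unadjusted p under 0.05 the numbers were 2 of 9 (Dgat2 and Soat1), 0 of 9 and 1 of 7 (Dgat2), beside 23.8%, 17% and 4.44% of all genes tested. DESeq2 called 1 of the 7 genes to which it gave a p in late against early ND, Soat1, where it called 5.19% of 28599 genes. It gave no p there to Scd1 and Mc5r, although Scd1 had at least 674 read pairs in every library. It called none of 6 in late ND against untreated mice, where it called 2.87% of 28451 genes. None of 6 was called in early ND against untreated mice, beside 0.00373% of 26780 genes. In both comparisons with untreated mice, DESeq2 gave no p to Scd1, Elovl3 and Far2. For none of the 9 genes did 2 groups lie apart without overlap on TMM CPM, which they did, in either direction, for 7.04% of genes tested in late against early ND, 5.84% in late ND against untreated mice and 0.543% in early ND against untreated mice. The p-values of these fits measure the spread between mice of 1 experiment.

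In late against early ND the fold changes on the log2 scale of the 7 genes that were high together were no larger than their standard errors. Scd1 differed by 0.09 ± 0.67 (SE), Elovl3 by 0.27 ± 0.86, Far2 by 0.18 ± 0.41, Acsbg1 by 0.17 ± 0.45 and Mc5r by -0.13 ± 0.89, with n = 5 mice in each group. Scd3 and Krt79 were at 0.84 ± 0.85 and 0.69 ± 0.84. The log2 fold changes of Dgat2 (0.96 ± 0.41) and Soat1 (0.74 ± 0.23) exceeded their standard errors by more, and for both genes 3 of 5 late ND mice lay above every early ND mouse. The median over the 9 genes was 0.27, against 0.014 over all genes tested, and scaling by library totals gave 1.01, against 0.86. Without early 3 it was 1.54, and 4 genes were called higher, Scd3, Elovl3, Dgat2 and Soat1, where 7.73% of 13676 genes were called higher. Without late 5 the median was -0.36 and none was called, where 1.85% of 13278 genes were called in either direction.

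With untreated 5, early 3 and late 5 all left out, a setting chosen after seeing these libraries, the median in late against early ND was 0.99 over 8 genes. Scd3 (1.39 ± 0.38), Elovl3 (1.18 ± 0.32) and Dgat2 (1.39 ± 0.35) were then called higher in late ND, where 5.51% of 13168 genes were called higher. Scd1 stood at 0.47 ± 0.21 and Krt79 at 1.26 ± 0.49, neither of them called, and Mc5r did not pass the count filter. The sign of the median in late against early ND thus changed with 1 library left out, late 5.

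Against untreated mice, 8 of 9 genes had a negative log2 fold change in late ND mice, from -0.04 ± 0.27 for Dgat2 to -1.36 ± 0.96 for Mc5r, and Soat1 was at 0.36 ± 0.20. The median was -0.54, against 0.0023 over all genes tested, and with library totals it was 0.265, against 0.91. It was 0.74 without untreated 5, -1.22 without late 5 and 0.11 without the 3 libraries, so that it changed sign without untreated 5. In early ND against untreated mice all 7 genes tested had negative values, from -0.36 ± 0.19 for Soat1 to -1.04 ± 0.94 for Scd3, with a median of -0.80 against -0.0022 over all genes. Dgat2 was at -0.99 ± 0.40 there, and 4 of 5 early ND mice lay below every untreated mouse. The median of the 7 was 0.11 without untreated 5 and -1.70 without early 3. The 2 comparisons with untreated mice share those 5 libraries, untreated 5 among them, and the 2 comparisons with late ND share the late ND libraries.

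**Figure D4:**
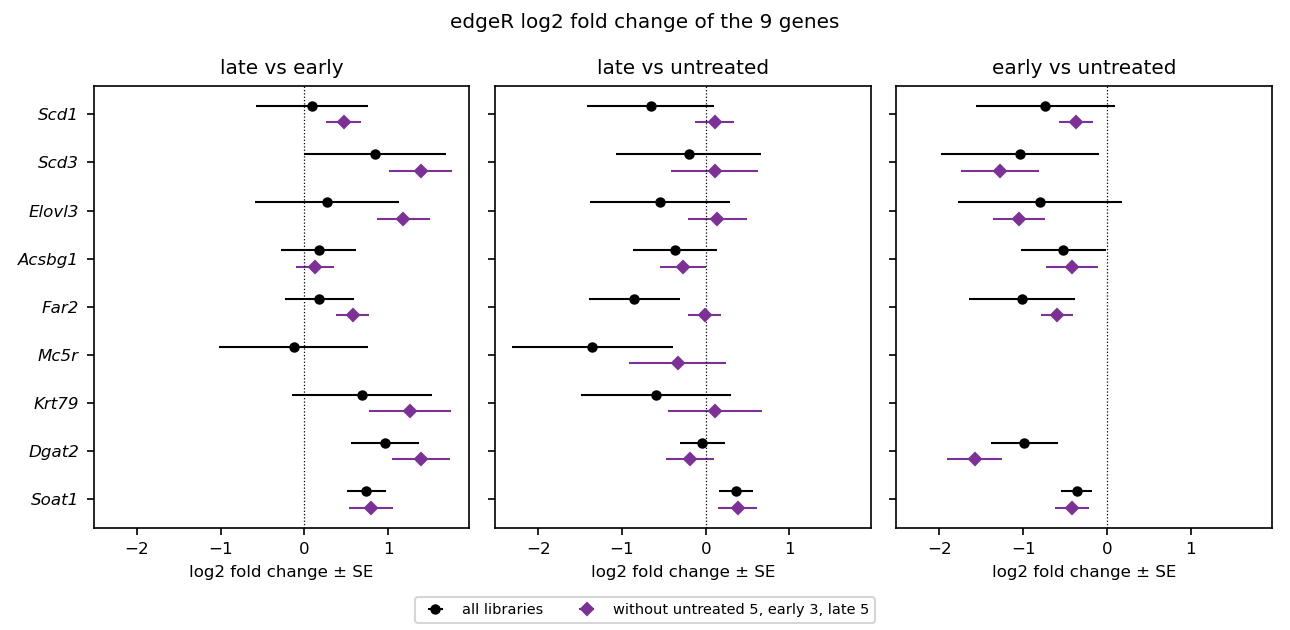
edgeR log2 fold change of each of the 9 genes in the 3 pairs of groups, as points with standard error bars, from all libraries (circles) and without untreated 5, early 3 and late 5 (diamonds). Genes that did not pass the count filter have no point. In late against early ND, Scd3, Elovl3 and Dgat2 move to 1.39, 1.18 and 1.39 without the 3 libraries, and the values of late ND against untreated mice then lie between -0.34 and 0.38.

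The 45 other sebaceous and lipid-synthesis genes showed no called member in any comparison either. Of 31 tested in each, 0 were called. At an unadjusted p under 0.05 there were 7 in late against early ND, beside 23.8% of all genes tested. There was 1 in late ND against untreated mice, beside 17%, and there were 2 in early ND against untreated mice, beside 4.44%. The 7 are named as a description only. Of the 7, Elovl1, Dgat1, Plin3, Mgst1 and Soat2 had positive log2 fold changes and Fads2 and Acsl1 negative ones. The medians were 0.255, -0.375 and -0.63 over the list, against 0.014, 0.0023 and -0.0022 over all genes tested.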

How the data were processed

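The 15 libraries, 1 per mouse, hold read pairs from RNA of whole blood. Per the labels, the authors aligned reads with STAR 2.7.9 to GRCm39, sorted them with SAMtools 1.7 and counted read pairs per gene with HTSeq 0.13.5, and the deposited values are these raw counts. The notes also list an earlier mouse build without a role. The annotation release and strand setting are not given in the sources used here. Rows that name no gene were left out of library sizes. Of 55416 identifiers 54749 matched the GENCODE annotation on GRCm39. The authors' own comparisons were not used.

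TMM-normalized CPM were computed with edgeR 4.0.16 in R 4.3.3 from all 15 libraries. Each pair of groups was tested with edgeR's quasi-likelihood test after its filter on low counts, with Benjamini-Hochberg adjustment over all genes and a threshold of 0.05. In simulated counts for late against early ND with 13168 genes, 200 of 200 genes changed by 2 on the log2 scale were recovered, with 14 false calls. The simulation drew every gene with the same dispersion, changed only genes with many read pairs and had no outlying library. It therefore does not show what the fits can recover for the 9 genes. Alternatives were DESeq2 1.42.0, library totals, other filters, 1 fit of all libraries, a replicate block and libraries left out. Promoters came from RefSeq on GRCm38.p6, and tables were handled with pandas and SciPy. Named were the 9 genes, called genes of the lists with Scd2 and Scd4, the 10 genes most correlated with the mean of the 9, and the 3 most abundant genes of each marker list, of which 1 is not reported here. Others, such as Fasn and Perp, were picked as examples after their values were seen. The 9 genes and all lists were chosen with earlier results of these data known. Replicate numbers do not mark shared animals, and correlations of same-numbered libraries' deviations ran from -0.25 to 0.579, so the numbers were not taken as pairs.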

Additional observations from a re-analysis of the deposited data

Results flagged for a closer look

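Of 27 sets of 5 libraries (9 genes in 3 groups), 19 held 1 library whose gap to its nearest neighbour was larger than Dixon's critical value. The library was early 3 in 7, untreated 5 in 6 and late 5 in 6. For Scd1 it was untreated 5 at 3033 CPM, early 3 at 1609 CPM and late 5 at 1460 CPM, and for Scd3 the same libraries at 619.5, 322.5 and 497.8 CPM. Elovl3 was at 305.6, 182.6 and 175 CPM in them, Mc5r at 24.81, 9.971 and 8.107 CPM and Krt79 at 24.65, 9.561 and 14.51 CPM. Acsbg1 stood apart in early 3 (23.77 CPM) and late 5 (29.35 CPM), and Far2 in untreated 5 (108.9 CPM) and early 3 (42.2 CPM). Neither Dgat2 nor Soat1 had such a library. The genes were selected on these levels, so the 19 are a description and are set against no rate of chance. They rest on 3 mice.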

How the results depend on the processing

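No member was called in any of the 3 comparisons of groups with DESeq2 size factors in edgeR or at least 10 counts in every library. Nor was any called with 1 fit of all 15 libraries or without the libraries poor in 18S RNA. In this order, these settings called 4.05%, 7.1%, 5.58% and 0.0298% of all genes tested in late against early ND. The shares were 2.89%, 4.59%, 2.39% and 0% in late ND against untreated mice. In early ND against untreated mice each was 0%. In late against early ND, 1 of the 9 genes was called with DESeq2 and 1 without a filter on low counts, 6 with library totals, 3 without untreated 5, early 3 and late 5, and 0 to 4 with 1 library left out in turn, beside 5.19%, 4.47%, 68%, 9.22% and 1.09% to 11.8% of all genes tested in these settings. Of the other sebaceous and lipid-synthesis genes, 4 were called with DESeq2, 17 with library totals and 4 without a filter. With at least 10 counts in every library 2 were called (7.1% of all genes), and without the 3 libraries 5. With 1 library left out, 0 to 9 were called. In late ND against untreated mice, library totals called 1 of the 9 genes and 8 of the other genes, beside 55.9% of all genes. With library totals the median over all genes tested was 0.86 in late against early ND and 0.91 in late ND against untreated mice, on the log2 scale. The number of the 9 genes with their highest level in a late ND library was 2, and was 4 with library totals, 1 with DESeq2 size factors, 5 without untreated 5, early 3 and late 5, and 1 to 5 with 1 library left out. The cause of these shifts was not tested.

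With the replicate block, 0 of the 9 genes and 0 of the other genes were called in each comparison. The block thus changed none of their calls. Of all genes tested, it called 5.05% in late against early ND and 4.48% in late ND against untreated mice. In early ND against untreated mice it called 0%. Of 462 log2 fold changes of single genes under the alternatives, 18 moved by more than 1 SD and 48 had the other sign. Depth limits Mc5r and Krt79, which had 3 read pairs or fewer in 4 and 3 libraries.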
